A study of Mus musculus with 12 samples.

Results

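The genes described here are 10 genes of complement and of microglia, taken by symbol from the 19312 genes of the deposited expression table: *C4b*, *C1qa*, *C1qb*, *C1qc* and *C3* of the complement system, and *Cx3cr1*, *P2ry12*, *Tmem119*, *Csf1r* and *Aif1* of microglia. All 10 had a row, and all 10 passed the filter on low values in every comparison. The list was chosen by function, with earlier results of these data known. *C4b* was also selected on its measured values by genotype, which are higher in the knockouts. Its genotype values are therefore a description with no test, and those of the other 9 genes were tested.

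RNA came from 12 male mice on the C57BL/6N background at postnatal day 25, 3 in each of 4 groups that differ in *Shank2*, a scaffold protein of excitatory synapses, and in treatment. WT-Veh and WT-Mem were wild-type mice, and KO-Veh and KO-Mem were *Shank2*-KO mice, homozygous for a germline deletion of exons 6 and 7. Mem groups were given memantine, a blocker of NMDA-type glutamate receptors, by mouth at 20 mg/kg 2 times a day from postnatal day 7 to 21, and Veh groups were given the 0.1% saccharin vehicle on the same schedule. The labels call the tissue whole brain and the methods forebrain without the cerebellum, and each mouse was its own sample. In bulk tissue, fewer cells of a type and less RNA per cell cannot be told apart.

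Complement is a cascade of plasma and tissue proteins that tags targets for uptake. In the classical pathway C1q, a complex of A, B and C chains, binds the target and activates the proteases that cleave C4 and C2, and the resulting convertase cleaves C3, whose fragments are read by receptors on phagocytes. In the brain C1q is made mostly by microglia, C4 and C3 can be made by astrocytes and other cells, and the cascade is known for its part in the removal of synapses during development. Microglia, the resident macrophages of the brain, depend on the receptor encoded by *Csf1r*, sense neuronal fractalkine through *Cx3cr1* and purines through *P2ry12*, and are recognized by *Tmem119* and *Aif1* (IBA1).

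Start-site sequence from RefSeq (build GRCm38.p6) was given for 6 of the 10 genes, *C1qb*, *C1qc*, *C3*, *Cx3cr1*, *P2ry12* and *Aif1*, and for none of *C4b*, *C1qa*, *Tmem119* and *Csf1r*. The 250 bases before the start site are shown for the gene that passed the test on genotype (*P2ry12*), the one whose knockout values were closest together (*C1qb*) and the one whose knockout values were farthest apart (*C3*). They lie at chr3:59262986-59263235, chr4:136886201-136886450 and chr17:57228137-57228386, all on the minus strand, and are written 5′ to 3′ along the gene. Capitals mark matches on either strand to GAGGAA or GGAAGT, which hold the core letters bound by ETS-family factors such as PU.1, the lineage factor of microglia. A match on the opposite strand is written as its reverse complement.
P2ry12: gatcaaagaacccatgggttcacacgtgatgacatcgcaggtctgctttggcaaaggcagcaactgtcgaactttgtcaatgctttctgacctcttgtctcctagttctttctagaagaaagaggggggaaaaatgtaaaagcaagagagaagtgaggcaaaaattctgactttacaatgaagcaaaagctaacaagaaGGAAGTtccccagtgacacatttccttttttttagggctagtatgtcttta
C1qb: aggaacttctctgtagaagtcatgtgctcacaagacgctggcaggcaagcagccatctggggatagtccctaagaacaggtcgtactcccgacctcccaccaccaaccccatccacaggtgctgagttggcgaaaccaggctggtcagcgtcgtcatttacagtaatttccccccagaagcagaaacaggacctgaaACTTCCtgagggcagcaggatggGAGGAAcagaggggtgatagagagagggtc
C3: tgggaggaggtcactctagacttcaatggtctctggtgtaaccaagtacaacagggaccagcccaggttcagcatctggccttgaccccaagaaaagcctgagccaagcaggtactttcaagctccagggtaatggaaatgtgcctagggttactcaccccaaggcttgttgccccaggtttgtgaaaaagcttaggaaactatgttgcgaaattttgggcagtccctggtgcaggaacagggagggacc

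*P2ry12* held GGAAGT from 51 bases before its start, and *C1qb* held GGAAGT on the opposite strand from 53 bases and GAGGAA from 30 bases before its start. Among the 3 windows not shown, *C1qc* held both on the opposite strand, 195 and 193 bases before the start and overlapping each other, *Aif1* held GAGGAA on the opposite strand 7 bases before the start, and *Cx3cr1* held none. Of 32851 promoter windows of the same length, 23.3% hold GAGGAA and 19.7% hold GGAAGT on either strand. A match is a description of the letters, and no match in *C3* or *Cx3cr1* says only that they are not in this window.

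*Shank2* checked the genotype labels: its normalized count lay between 7156 and 8548 in the 6 WT mice and between 2706 and 3178 in the 6 KO mice. Relative depth, estimated from values above 0 and below 1.5, lay between 0.89 and 1.15 of the mean over the 12 mice. This ceiling bounds the estimate, so a large difference in depth could be understated. As for the labelled tissue, the summed level of 10 neuronal markers was between 188679 and 217700 in every mouse, and none of these markers was at 0. The 3 KO-Mem mice were uneven, with replicate 3 apart from replicates 1 and 2. Mem-K/W called 12 genes with all mice, and 6, 2 and 1911 without KO-Mem replicate 1, 2 or 3 in turn. Replicates 1 and 2 held the lowest *P2ry12* values of the 12 mice (366 and 462), and replicate 3 (833) lay within the WT range. Which of the 3 is unusual cannot be told from these mice. For the 10 genes a printed fold change is given both ways where leaving out replicate 3 moved it by over 1.5 times or across the threshold. Counts of genes at an unadjusted p are those with all mice unless stated.

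Per kilobase of annotated exon, the scale on which genes can be compared with each other, the C1q chains and *Csf1r* led and *C3* was last. In WT-Veh the mean level per kilobase was 839 for *C1qb*, 634 for *C1qa*, 513 for *Csf1r*, 409 for *C1qc*, 361 for *P2ry12*, 281 for *Cx3cr1*, 233 for *Tmem119*, 102 for *C4b*, 50.2 for *Aif1* and 3.33 for *C3* (n = 3 mice). Neighbours in this order overlapped over the 3 mice, except that *P2ry12* stood above *Cx3cr1*, *Tmem119* above *C4b*, *C4b* above *Aif1*, and *Aif1* above *C3*. Over all 12 mice the order was the same, with *C4b* above *Aif1* and *Aif1* above *C3* and all other neighbours overlapping. In KO-Mem the mean of *C4b* (237 per kilobase) came to lie above those of *P2ry12* (217) and *Tmem119* (159), and *C4b* overlapped both over the 3 mice.

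*C4b*, which encodes complement C4 and lies at chr17:34728380-34743882 in the major histocompatibility region (GRCm38, GENCODE M21), had normalized counts of 567, 565 and 605 in WT-Veh and of 570, 690 and 661 in WT-Mem. In KO-Veh it was at 1120, 728 and 1370, and in KO-Mem at 1774, 1406 and 862. The values did not overlap between genotypes, since the lowest KO mouse (728) stood above the highest WT mouse (690). The distance between these 2 mice was small next to the spread among the KO mice, which reached 31.9% of their mean, against 8.86% in WT. Means were 579 ± 22.7 in WT-Veh and 1073 ± 324 in KO-Veh (SD, n = 3), a ratio of 1.85, and 640 ± 63.0 in WT-Mem and 1347 ± 458 in KO-Mem (SD, n = 3), a ratio of 2.10. Over both treatments the groups of 6 mice differed by 0.93 on the log2 scale. Without KO-Mem replicate 3 the Mem-K/W difference was 1.31 in place of 1.01. The genotype values are those by which the gene was chosen, and nothing is read from them; of all genes tested, 4.06% did not overlap between the 6 WT and the 6 KO mice.

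The memantine comparisons of *C4b* were not used to choose it, although they share the KO and WT mice that were. *C4b* was 0.31 higher on the log2 scale in KO-Mem than in KO-Veh (SE 0.28, 95% confidence interval −0.31 to 0.94, adjusted p = 0.714) and 0.14 higher in WT-Mem than in WT-Veh (SE 0.096, adjusted p = 0.978), and the groups overlapped in both. Memantine over both genotypes gave 0.23 (SE 0.16, adjusted p = 0.706), and 0.35 without KO-Mem replicate 3 (adjusted p = 0.356). The genotype difference was not detectably larger or smaller under memantine, with an interaction of 0.17 (SE 0.33, 95% confidence interval −0.52 to 0.87, adjusted p = 0.969). Without KO-Mem replicate 3, *C4b* was 0.61 higher in KO-Mem than in KO-Veh (adjusted p = 0.202), and the interaction was 0.46 (adjusted p = 0.589).

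**Figure D1:**
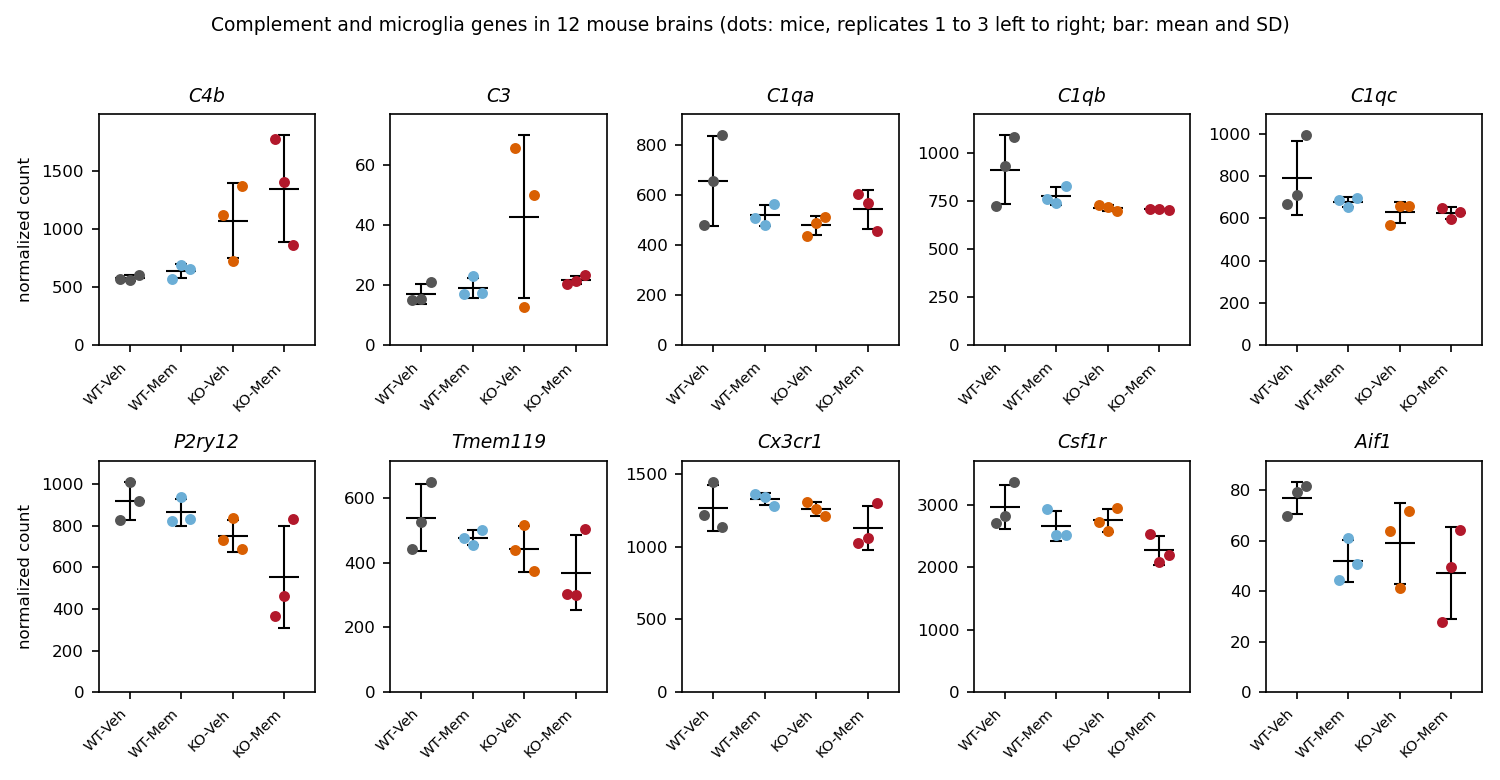
Normalized counts of the 10 genes (y axis, linear, from 0) in the 4 groups (x axis), with 1 dot per mouse and the mean and SD of 3 mice as the bar. The 6 KO mice sit between 728 and 1774 for C4b, above the 6 WT mice, while P2ry12 reaches its lowest values (366 and 462) in KO-Mem replicates 1 and 2.

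*C4b* has a near-identical neighbour, *C4a*, so that the division of reads between the pair is uncertain. *C4a* was at 115 ± 8.27 in WT-Veh and 89.0 ± 10.4 in KO-Veh (SD, n = 3), and its difference over both treatments was −0.28 on the log2 scale (SE 0.15, adjusted p = 0.219). Of the 3 tested genes on each side of *C4b* by position (*Fkbpl*, *Atf6b*, *Tnxb*, *C4a*, *Stk19* and *Dxo*), 1 was called on genotype, *Atf6b*, a transcription factor of the unfolded protein response, which fell by 0.26 (SE 0.062, adjusted p = 0.0202). The other 5 lay between −0.28 and 0.17. None of the 6 was called higher. In this comparison 10.8% of all genes were called, so 1 of 6 is near the background.

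The question for the other 9 genes was whether they differed between genotypes as well. In vehicle-treated mice (Veh-K/W, KO-Veh against WT-Veh) none of the 9 passed the limma test at an adjusted p under 0.05, and 0.0283% of all 17671 genes tested did. The smallest adjusted p among them was 0.257. Of the 9, 8 were below 0 (49.6% of all genes were), with a median of −0.29 against 0.0017 over all genes, and 4 of 9 had an unadjusted p under 0.05, all 4 lower (7.68% of all genes were lower at that p). The 4 were *P2ry12* and the C1q chains.

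The C1q chains lie side by side on chromosome 4. *C1qa* was at 481, 656 and 840 in WT-Veh, at 511, 483 and 566 in WT-Mem, at 439, 491 and 512 in KO-Veh and at 605, 570 and 456 in KO-Mem. *C1qb* was at 726, 932 and 1082 in WT-Veh, at 760, 742 and 829 in WT-Mem, at 727, 719 and 697 in KO-Veh and at 708, 711 and 706 in KO-Mem. *C1qc* was at 667, 711 and 992 in WT-Veh, at 687, 652 and 698 in WT-Mem, at 570, 657 and 657 in KO-Veh and at 649, 597 and 632 in KO-Mem. WT-Veh replicate 3 was the highest of the 12 mice for all 3 chains, and WT-Veh had the widest spread, with an SD of 27.3%, 19.6% and 22.3% of the mean for *C1qa*, *C1qb* and *C1qc*. The 6 KO values of *C1qb* spanned 697 to 727, an SD of 1.47% of the mean against 16.4% in WT.

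Veh-K/W differences of the chains were −0.42 for *C1qa* (SE 0.17, adjusted p = 0.300), −0.33 for *C1qb* (SE 0.13, adjusted p = 0.281) and −0.31 for *C1qc* (SE 0.14, adjusted p = 0.343). Only *C1qc* kept the groups apart, with 657 as the highest KO-Veh and 667 as the lowest WT-Veh value; 20.4% of all genes did not overlap in this comparison. In Mem-K/W (KO-Mem against WT-Mem) *C1qb* and *C1qc* did not overlap (26.2% of all genes did not), at −0.13 (SE 0.084) and −0.12 (SE 0.086), and *C1qa* was at 0.056 (SE 0.12), or 0.18 (SE 0.11) without KO-Mem replicate 3. Over both treatments the differences were −0.18, −0.23 and −0.21, with adjusted p = 0.357, 0.0738 and 0.119, so none was called; *C1qb* was called only when WT-Veh replicate 1 was left out (−0.29, adjusted p = 0.0274). The interaction was 0.48 for *C1qa* (SE 0.23, adjusted p = 0.947).

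*C3*, the central component, was low and uneven. It was at 15.0, 15.4 and 20.9 in WT-Veh, at 17.02, 22.9 and 17.5 in WT-Mem, at 65.4, 12.8 and 50.01 in KO-Veh and at 20.5, 21.4 and 23.3 in KO-Mem. KO-Veh replicates 1 and 3 held the highest values of the 12 mice, and KO-Veh replicate 2 held the lowest. The Veh-K/W difference was 1.00 on the log2 scale with a wide error (SE 0.52, 95% confidence interval −0.14 to 2.15, adjusted p = 0.403), the Mem-K/W difference was 0.19 (SE 0.29, adjusted p = 0.745), and their interaction was −0.82 (SE 0.64, adjusted p = 0.947). KO-Veh replicate 2 was also the lowest KO mouse for *C4b*.

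*P2ry12*, the purine receptor by which resting microglia sense injury (chr3:59216272-59262871), was the one gene of the 9 called on genotype. It was at 828, 1011 and 921 in WT-Veh, at 823, 940 and 831 in WT-Mem, at 731, 837 and 689 in KO-Veh and at 366, 462 and 833 in KO-Mem. The 2 lowest values of the 12 mice were those of KO-Mem replicates 1 and 2, while KO-Mem replicate 3 and KO-Veh replicate 2 lay within the WT range. Over both treatments *P2ry12* fell by 0.51 on the log2 scale in KO mice (SE 0.15, 95% confidence interval −0.84 to −0.18, adjusted p = 0.0469; 653 ± 196 in KO against 892 ± 77.4 in WT, SD, n = 6). This is 1 of 9 genes, in a comparison in which 10.8% of all genes were called, so the count is near the background. The call did not hold in 9 of the 12 fits that left out 1 mouse, with adjusted p between 0.0584 and 0.106 without WT-Veh replicate 2 or 3, any WT-Mem mouse, KO-Veh replicate 1 or 3, or KO-Mem replicate 1 or 2; the difference stayed between −0.64 and −0.37.

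Within each treatment *P2ry12* was not called: −0.29 in Veh-K/W (SE 0.10, adjusted p = 0.257) and −0.73 in Mem-K/W (SE 0.24, adjusted p = 0.142). Without KO-Mem replicate 3, Mem-K/W was −1.07 (SE 0.12, adjusted p = 0.00215), in a fit that called 10.8% of all genes. The interaction was −0.44 (SE 0.30, adjusted p = 0.947), and −0.78 without that mouse (adjusted p = 0.170), so a larger genotype difference under memantine was not shown.

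*Tmem119*, a transmembrane protein used as a marker of resident microglia, followed the same mice. It was at 442, 527 and 650 in WT-Veh, at 476, 456 and 501 in WT-Mem, at 438, 517 and 374 in KO-Veh and at 303, 301 and 503 in KO-Mem. KO-Mem replicates 1 and 2 were again the lowest and replicate 3 lay just above the WT-Mem mice. The difference over both treatments was −0.35 (SE 0.13, adjusted p = 0.0925), and −0.45 without KO-Mem replicate 3 (adjusted p = 0.0185), in a fit that called 15.2% of all genes. In Mem-K/W it was −0.41 (SE 0.18, adjusted p = 0.232), and −0.66 without that mouse (adjusted p = 0.00831).

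*Cx3cr1*, the fractalkine receptor, was at 1219, 1446 and 1134 in WT-Veh, at 1360, 1345 and 1279 in WT-Mem, at 1305, 1260 and 1214 in KO-Veh and at 1025, 1063 and 1302 in KO-Mem. Its Veh-K/W difference was −0.00077 (SE 0.093, 95% confidence interval −0.21 to 0.20). In Mem-K/W it was −0.24 (SE 0.099, adjusted p = 0.203), and −0.35 without KO-Mem replicate 3 (adjusted p = 0.0289).

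*Csf1r*, the receptor for CSF1 and IL-34 that microglia need to survive, had the largest normalized counts of the 10 genes. It was at 2702, 2816 and 3368 in WT-Veh, at 2940, 2521 and 2525 in WT-Mem, at 2732, 2582 and 2942 in KO-Veh and at 2538, 2091 and 2196 in KO-Mem. It did not follow the pattern of *P2ry12*, since KO-Mem replicate 1 was the highest of its group. All 3 KO-Mem mice lay below all 3 KO-Veh mice (13.9% of all genes did not overlap), a difference of −0.28 (SE 0.083, unadjusted p = 0.00853) that did not pass the correction over all genes (adjusted p = 0.554). Its exons overlap those of *Hmgxb3* on the opposite strand by 873 bases, and the libraries were made with a kit that does not mark strand, so reads from that overlap cannot be assigned; for *Cx3cr1* (*Gm33858*) and *P2ry12* (*Med12l*) the overlap is 78 and 9 bases.

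*Aif1*, which encodes the actin-binding protein IBA1, was low, at 69.6, 79.3 and 81.7 in WT-Veh, at 44.3, 60.9 and 50.9 in WT-Mem, at 63.9, 41.1 and 71.8 in KO-Veh and at 27.9, 49.6 and 64.3 in KO-Mem. The 3 WT-Mem mice lay below the 3 WT-Veh mice (9.34% of all genes did not overlap), a difference of −0.56 (SE 0.19, unadjusted p = 0.0146, adjusted p = 0.978). Over both treatments its genotype difference was −0.31 (SE 0.20, adjusted p = 0.312).

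**Figure D2:**
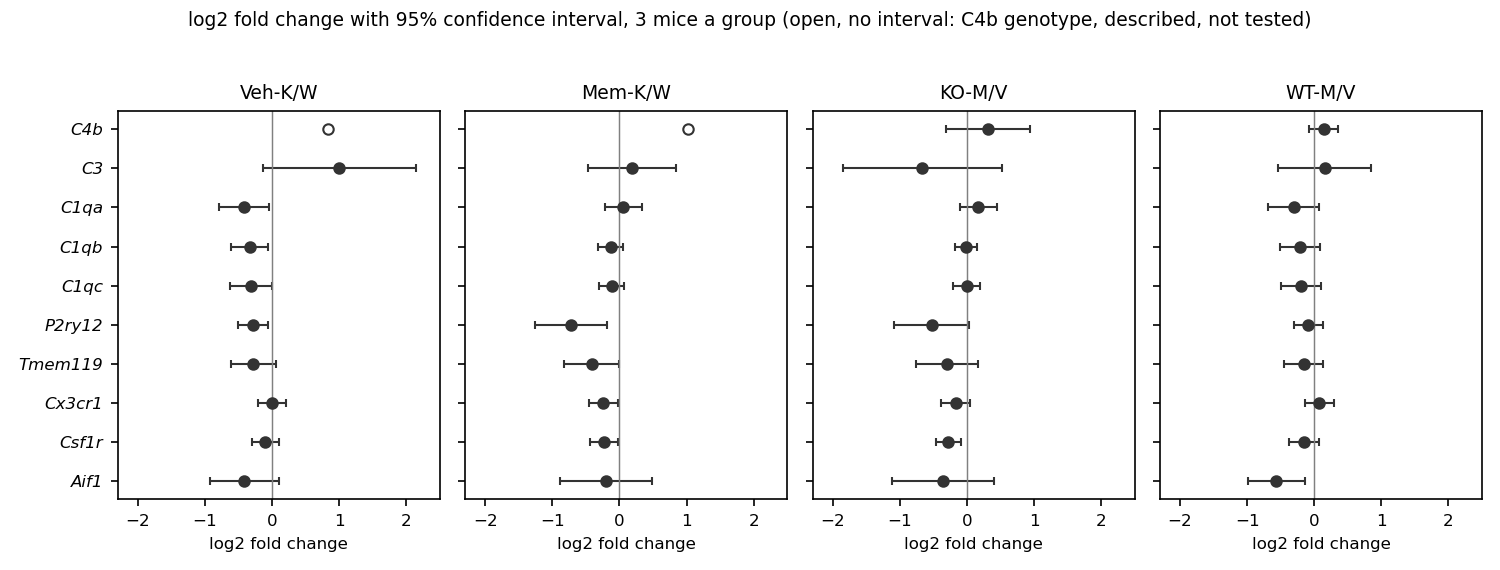
Log2 fold change (x axis) of each of the 10 genes (y axis) in 4 panels, the genotype comparisons Veh-K/W and Mem-K/W and the memantine comparisons of KO and of WT mice, with the 95% confidence interval of the limma fit on 3 mice a group; open points without an interval are the genotype differences of C4b, which were not tested. In Mem-K/W the 5 microglial genes lie between −0.73 and −0.20, and no filled point passed the correction over all genes.

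Read as groups, the 5 microglial genes were all below 0 in Mem-K/W (49.7% of all genes were), from −0.73 to −0.20, and 4 of the 5 had an unadjusted p under 0.05 (10.8% of all genes were lower at that p), with none called (0.068% of all genes were). Without KO-Mem replicate 3 the 5 genes lay between −1.07 and −0.20, with *Aif1* at −0.46 in place of −0.20. In that fit 3 of them were called (*P2ry12*, *Tmem119* and *Cx3cr1*), and 10.8% of all genes were called. The 3 C1q chains lay between −0.13 and 0.056 with all mice, and between −0.13 and 0.18 without that mouse. In the pooled genotype comparison 5 of the 9 genes were lower at an unadjusted p under 0.05 (15.1% of all genes were), and 1 was called.

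For memantine, none of the 10 genes was called in KO-M/V (KO-Mem against KO-Veh), in WT-M/V (WT-Mem against WT-Veh), over both genotypes or in the interaction; of all genes 0%, 0.0114%, 0% and 0% were called by limma. At an unadjusted p under 0.05 there was 1 of 10 in KO-M/V (*Csf1r*; 8.88% of all genes), 1 in WT-M/V (*Aif1*; 3.97%), 2 over both genotypes (*Csf1r* and *Aif1*; 8.6%) and 0 in the interaction (4.76%). These counts are those with all mice and were not repeated without KO-Mem replicate 3. Without that mouse, 3315 of 17720 genes had such a p in KO-M/V, 2110 of 17645 over both genotypes and 1755 of 17645 in the interaction. In KO-M/V *Tmem119* was then at −0.54 (SE 0.14), *Cx3cr1* at −0.27 (SE 0.073) and *C1qa* at 0.29 (SE 0.10). With all mice, 8 of 10 genes were below 0 in KO-M/V (50.3% of all genes were), and in WT-M/V 7 of 10 (50% of all genes were). *P2ry12* was −0.53 in KO-M/V (SE 0.25, adjusted p = 0.563) and −0.87 without KO-Mem replicate 3 (adjusted p = 0.0415, in a fit that called 0.547% of all genes), against −0.088 in WT-M/V (SE 0.097, adjusted p = 0.978).

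The remaining pairs crossed both factors. In KO-M/WT-V (KO-Mem against WT-Veh) none of the 9 genes was called, while 3.37% of all genes were, and 6 of 9 were lower at an unadjusted p under 0.05 (13.2% of all genes). The smallest adjusted p were those of *Csf1r* (−0.38, SE 0.10, adjusted p = 0.0643) and *P2ry12* (−0.82, SE 0.24, adjusted p = 0.0775), and without KO-Mem replicate 3 *P2ry12* (−1.16), *Tmem119* (−0.82) and *Aif1* (−1.02) were called, in a fit that called 14.1% of all genes. The groups did not overlap for 4 of the 9 genes, *C1qb*, *C1qc*, *Csf1r* and *Aif1* (31.1% of all genes did not). In WT-M/KO-V (WT-Mem against KO-Veh) none was called (0.0227% of all genes were) and none had an unadjusted p under 0.05 (8.94% of all genes had). *C4b* was at 1.16 in the former and −0.70 in the latter, as a description.

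Whether *C4b* and the other members varied together from mouse to mouse within groups was tested for 12 pairs of genes, and none passed the correction. Deviations from the group mean on the log2 scale were compared over the 12 mice by a two-sided exact permutation within groups. *C4b* and *P2ry12* had r = −0.80 (exact permutation p = 0.0347, Benjamini-Hochberg p = 0.139) and Spearman's rho = −0.69 (exact permutation p = 0.0826, Benjamini-Hochberg p = 0.207). Without the mice whose *C4b* deviation lay farthest from the median, KO-Mem replicate 3 and KO-Veh replicate 2, r was −0.62. In the 6 KO mice r was −0.88 and in the 6 WT mice 0.40.

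*C4b* and *Tmem119* had r = −0.76 (exact permutation p = 0.0502, Benjamini-Hochberg p = 0.139) and rho = −0.59 (exact permutation p = 0.0864), and r was −0.43 without these mice. *C4b* and *Cx3cr1* had r = −0.60 (exact permutation p = 0.0494, Benjamini-Hochberg p = 0.139) and rho = −0.62 (exact permutation p = 0.0594), and r was −0.48 without them. For *C4b* with the remaining 6 genes r lay between −0.12 (*Aif1*) and 0.54 (*C3*), with Benjamini-Hochberg p between 0.289 and 0.932. Among the C1q chains r was 0.84 (*C1qa* and *C1qb*, exact permutation p = 0.0509), 0.79 (*C1qa* and *C1qc*, p = 0.0579 by the same exact test) and 0.76 (*C1qb* and *C1qc*, exact permutation p = 0.285). These relations rest on WT-Veh replicates 1 and 3, since r was 0.31, 0.37 and −0.13 without them.

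**Figure D3:**
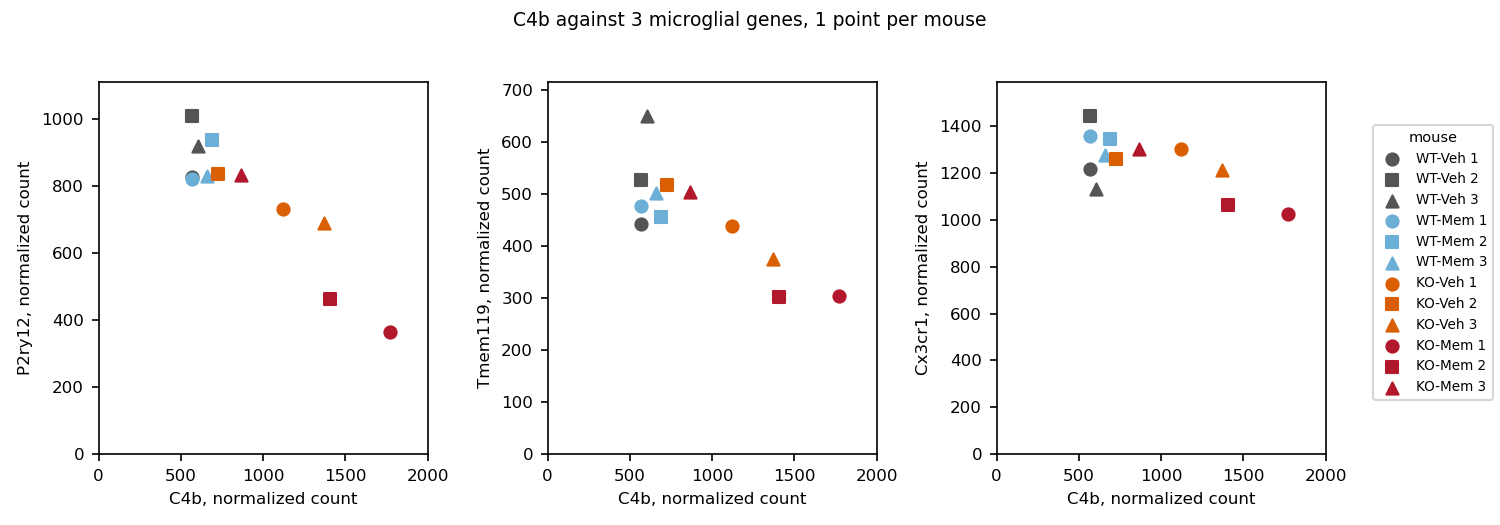
Normalized count of C4b (x axis, linear, from 0) against P2ry12, Tmem119 and Cx3cr1 (y axes, linear, from 0), 1 point per mouse, colour for group and marker shape for replicate number. KO-Mem replicates 1 and 2 (C4b 1774 and 1406) have the lowest P2ry12 (366 and 462), and KO-Mem replicate 3 (C4b 862, P2ry12 833) lies beside the WT mice.

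The genes whose levels over the 12 mice were most like those of *C4b* were *Gm49492* (r = 0.99), *Vip*, a neuropeptide (0.98), and *Gm26703* (0.98), of 14241 genes ranked; the points share the genotype and treatment groups. For *P2ry12* they were *Bcs1l* (0.99), *Wls* (0.98) and *Fcrls* (0.98), an Fc receptor-like gene of microglia. *C1qa* was most like *Brsk1* (0.92), *Ppfibp2* (0.92) and *Clu* (0.90), *C1qb* most like *Pcp4l1* (0.96), *Nupr1* (0.95) and *Dtx3* (0.95), and *C1qc* most like *Rps3* (0.97), *Atxn7l3* (0.96) and *Rfng* (0.95). *Tmem119* was most like *Tusc2* (0.95), *Mmd2* (0.95) and *Gpr137* (0.95), *Cx3cr1* most like *Tmem47*, *Selenot* and *Gmfb* (0.93 each), and *Csf1r* most like *Ap5z1* (0.92), *St6galnac2* (0.88) and *Ccdc159* (0.86). For *C3* the first was *Ifit2* (0.84), an interferon-induced gene, followed by *Asb18* (0.83) and *Znf41-ps* (0.83), and for *Aif1* it was *Cldnd1* (0.88), followed by *2810002D19Rik* (0.88) and *Cr1l* (0.87).

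Around the members, the rest of the complement pathway held calls by genotype in both directions, beside a background of 4.89% of all genes called higher and 5.91% called lower over both treatments. Of 12 other proteases and components in the table, 1 rose and 1 fell over both treatments. *Cfp*, which encodes properdin, the stabilizer of the alternative convertase, was at 234, 275 and 340 (WT-Veh), 256, 222 and 240 (WT-Mem), 173, 183 and 169 (KO-Veh) and 142, 126 and 173 (KO-Mem). All 6 KO mice lay below all 6 WT mice (4.06% of all genes did not overlap between the genotypes). It fell by 0.69 (SE 0.10, adjusted p = 0.0041), a call kept in all 12 fits that left out 1 mouse. *C7*, a component of the membrane attack complex, rose by 0.80 (SE 0.23, adjusted p = 0.0383; kept in 5 of 12) at values of 9.56 to 55.3. *C2*, which supplies the other part of the convertase with C4, was 0.91 higher in Veh-K/W (adjusted p = 0.192).

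Of 9 complement receptors tested, 1 fell over both treatments, *Cd93* (−0.33, adjusted p = 0.0363; kept in 6 of 12 fits), and of 15 regulators 1 fell, the plasma inhibitor *Vtn* (−0.25, adjusted p = 0.0481; kept in 3 of 12). *Itgam*, the alpha chain of complement receptor 3, was at 185 and 248 in KO-Mem replicates 1 and 2 and between 447 and 692 in the other 10 mice (Mem-K/W −0.94, adjusted p = 0.126, and −1.34, adjusted p = 0.00199, without replicate 3). *C3ar1*, the receptor for the C3a fragment, was at 136 and 103 in the same mice and between 32.2 and 53.5 in the others (Mem-K/W 1.08, adjusted p = 0.154, and 1.57, adjusted p = 0.00534, without replicate 3). *Serping1*, the inhibitor of the C1 proteases, had a KO-M/V difference of −0.34 (adjusted p = 0.554) and a WT-M/V difference of −0.38 (adjusted p = 0.978).

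Of 15 other genes of homeostatic microglia, 3 fell over both treatments (5.91% of all genes were called lower). Of the 15, 13 were below 0 (49.1% of all genes were), with a median of −0.12. *Fcrls* was at 433, 719 and 667 (WT-Veh), 505, 537 and 471 (WT-Mem), 402, 443 and 287 (KO-Veh) and 68.5, 117 and 335 (KO-Mem), and fell by 1.26 (SE 0.31, adjusted p = 0.023; kept in 9 of 12 fits). *Olfml3*, a secreted matrix protein, fell by 0.77 (SE 0.20, adjusted p = 0.026; kept in 8 of 12), and *Selplg*, a ligand of selectins, by 0.54 (SE 0.14, adjusted p = 0.0262; kept in 7 of 12). In each of them KO-Mem replicates 1 and 2 were the lowest of the 12 mice, as for *P2ry12*. *Siglech*, a sialic acid receptor, was at 172 and 183 in those mice against 274 to 352 in the others, and was not called on genotype (−0.18, SE 0.13).

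Of 20 pan-myeloid and phagocyte genes, 1 was called over both treatments, and it rose: *Cd68*, a lysosomal protein of phagocytes, by 0.35 (SE 0.11, adjusted p = 0.0476; kept in 3 of 12 fits), with 315 in both KO-Mem replicates 1 and 2 and 165 to 219 in the other 10 mice. Of all genes, 4.89% were called higher and 5.91% lower over both treatments. The summed level of the 20 genes was 8411 to 9948 in WT-Veh, 8691 to 9019 in WT-Mem, 8717 to 9470 in KO-Veh and 8690.0 to 9250.0 in KO-Mem. That of the homeostatic genes was 14651 to 17010 in WT-Veh, 14947 to 15502 in WT-Mem, 14505 to 14827 in KO-Veh and 12805 to 14720 in KO-Mem. The WT-Veh and KO-Mem sums overlapped for both lists, and so did the WT-Veh and KO-Veh sums. In the memantine groups the homeostatic sums of KO-Mem lay below those of WT-Mem, and the pan-myeloid sums overlapped. Of all single genes, 26.2% did not overlap in Mem-K/W. The sums were not tested. Of 11 activated-microglia genes, *Lgals3*, which encodes galectin-3, rose by 0.98 (SE 0.20, adjusted p = 0.0118; kept in all 12 fits) at values of 7.44 to 25.5, and *Cd9* fell by 0.27 (adjusted p = 0.041; kept in 2 of 12).

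Among 10 genes of ligands and partners by which other cells hold microglia, 3 fell: *Il34*, the neuronal ligand of the receptor encoded by *Csf1r*, by 0.31 (SE 0.095, adjusted p = 0.0476; kept in 2 of 12 fits), *Cx3cl1*, the fractalkine ligand of the *Cx3cr1* product, by 0.19 (SE 0.052, adjusted p = 0.0323; kept in 7 of 12), and *Tgfbr2*, a receptor for TGF-β, by 0.17 (SE 0.051, adjusted p = 0.0424; kept in 2 of 12). Of all genes, 5.91% were called lower over both treatments. *Cd200*, a neuronal inhibitor of microglia, was 0.32 higher in Mem-K/W (adjusted p = 0.101), and 0.40 higher without KO-Mem replicate 3 (adjusted p = 0.0152).

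**Figure D4:**
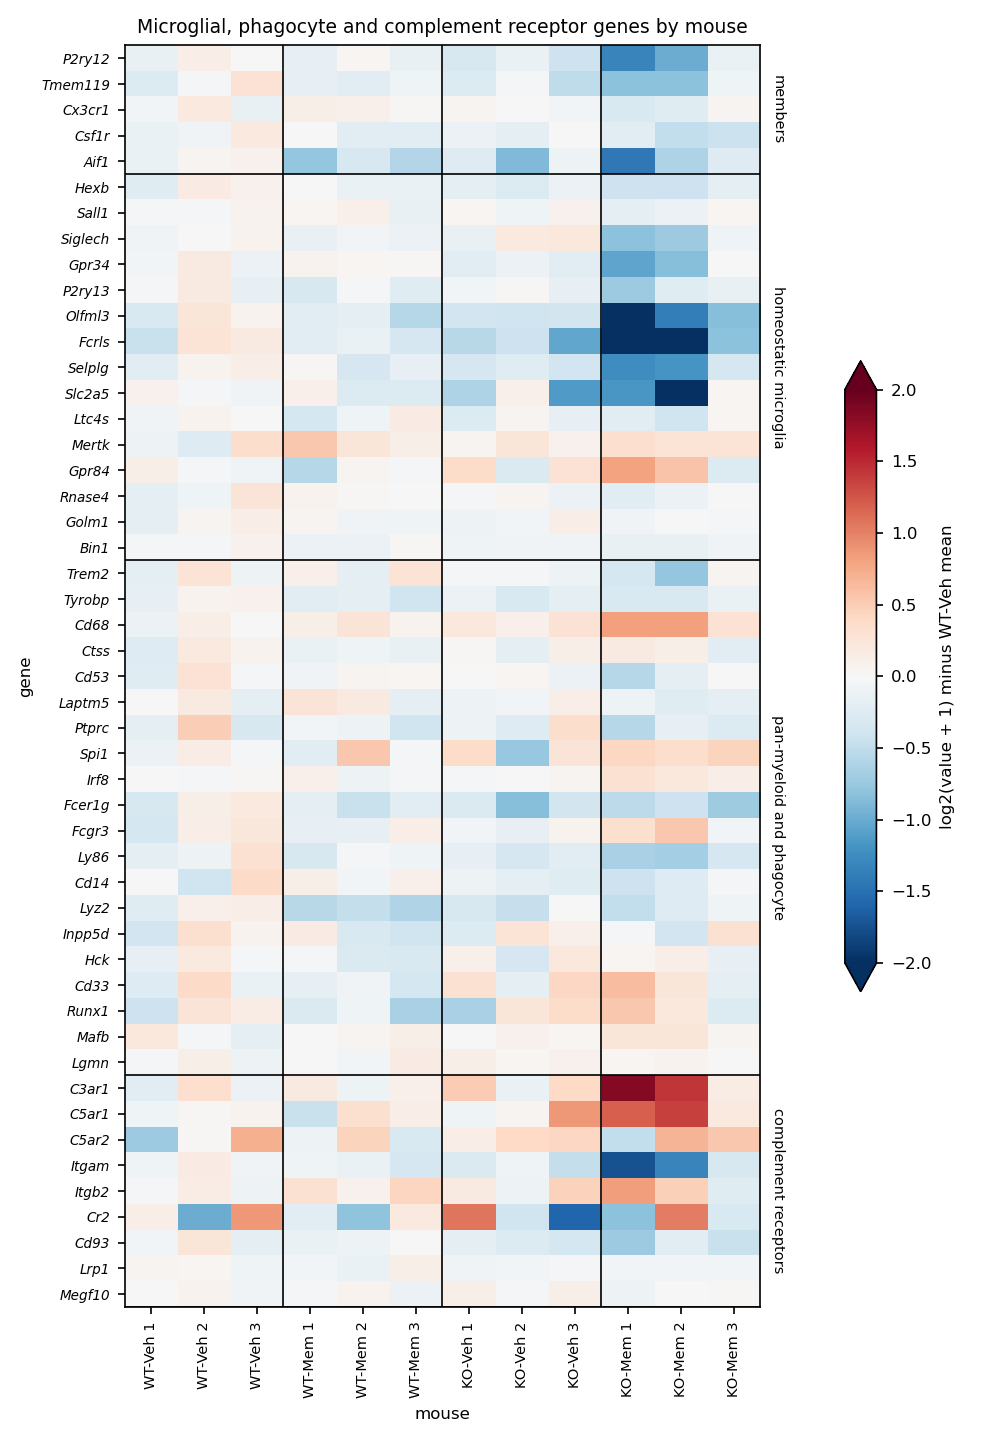
Log2 of the value plus 1 minus the WT-Veh mean (colour, from −2 to 2, values beyond drawn at the end colour), for the 5 microglial genes, 15 homeostatic, 20 pan-myeloid and phagocyte and 9 complement receptor genes (rows) in each mouse (columns). KO-Mem replicates 1 and 2 are blue for P2ry12, Tmem119, Siglech, Olfml3, Fcrls, Selplg and Itgam and red for Cd68 and C3ar1, and KO-Mem replicate 3 is closer to the other groups.

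Interferon signals and reactive astrocytes are other settings in which *C4b* and *C3* are known to be made. Over both treatments 4.89% of all genes were called higher and 5.91% called lower. Of 16 interferon genes, 8 were higher at an unadjusted p under 0.05 over both treatments (14.3% of all genes were) and 1 rose, *Usp18*, by 0.87 (SE 0.25, adjusted p = 0.0405; kept in 3 of 12 fits). *Irf7*, a transcription factor of this response, was 0.94 higher in Mem-K/W (adjusted p = 0.132), and 1.3 higher without KO-Mem replicate 3 (adjusted p = 0.00772). The summed level of the 16 genes was 4723 to 5358 in the 6 WT mice. It was 4737 in KO-Veh replicate 2, within that range, 4661 in KO-Mem replicate 3, below it, and 5976 to 7353 in the other 4 KO mice. KO-Veh replicate 2 and KO-Mem replicate 3 were also the KO mice with the lowest *C4b* (728 and 862). Whether *C4b* varied with the interferon genes was not tested. Of 11 reactive astrocyte genes, *Serpina3n*, a protease inhibitor, rose by 0.36 (SE 0.11, adjusted p = 0.0464; kept in 3 of 12) and *Hspb1*, a heat shock protein, fell by 0.45 (SE 0.14, adjusted p = 0.0495; kept in 3 of 12). *Lcn2*, a secreted acute-phase protein, was at 46.6, 48.7 and 44.8 in KO-Mem and at or below 19.5 in the other 9 mice, and rose by 2.35 in KO-M/WT-V (SE 0.31, adjusted p = 0.0222; kept in 2 of 6 fits).

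Some markers of other cell types were called on genotype and none on memantine, and their part in the differences above was not tested. Over both treatments 4.89% of all genes were called higher and 5.91% called lower, and the counts of genes that rose or fell stand beside these shares. Of 10 oligodendrocyte genes 8 fell over both treatments. Their summed level was 363164 to 441206 in WT-Veh, 323880 to 378689 in WT-Mem, 317425 to 335463 in KO-Veh and 259929 to 306944 in KO-Mem. For memantine over both genotypes none of the 10 was called, and 9 were lower at an unadjusted p under 0.05. Of all genes, 8.6% had such a p in either direction. Of 5 blood genes 4 fell, all hemoglobin chains. The blood sums were 19448 to 26320 in WT-Veh, 13301 to 14809 in WT-Mem, 7567 to 18764 in KO-Veh and 5626 to 12528 in KO-Mem, where replicate 1 was the lowest and replicate 3 the highest. For memantine none of the 5 was called, and 4 were lower at an unadjusted p under 0.05 both in WT-M/V and over both genotypes. Of all genes, 3.97% and 8.6% had such a p in either direction in these comparisons. Of 9 endothelial and mural genes 4 fell, and of 6 oligodendrocyte precursor genes 2 fell. Of 10 astrocyte genes 1 rose and 3 fell, of 10 neuronal genes 1 rose and 1 fell, and of 4 choroid plexus genes and 7 genes of border macrophages and blood leukocytes none was called by limma, with 1 and 2 at an unadjusted p under 0.05, all lower. The choroid plexus sum was 7247 and 10543 in KO-Mem replicates 1 and 2, the lowest of the 12 mice, and 14096 in replicate 3, within the WT range of 12535 to 14767. The summed level of the 11 border macrophage and leukocyte genes in the table was 258, 302 and 552 in the 3 KO-Mem mice, highest in replicate 3. Of the 40 list genes called over both treatments, 13 stayed called in all 12 fits that left out 1 mouse.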

How the data were processed

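RNA-Seq (poly-A selected TruSeq v2 libraries, no strand marking) was made from 12 mouse brains. The deposited signal values are normalized counts: per the labels and the methods the authors quantified reads by quasi-mapping to GRCm38 with Salmon 1.1.0, corrected for GC bias, imported them by gene with tximport and divided them by DESeq2 normalization factors over the 12 mice (the labels name DESeq2 1.26.0 and R 3.6.2). The annotation release and the gene filter are not given in the sources used here. Values are not whole numbers, so no count test was used, and their totals per mouse (30373849 to 31199251) are scaled and are no depth, which was estimated from the size of the lowest values (0.872 to 1.126 per read).

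Symbols and positions came from GENCODE M21 (19295 of 19312 genes matched). Each comparison was fitted with limma 3.58.1 (R 4.3.3; lmFit, eBayes with trend) on log2(value + 1), for genes whose mean in the fitted mice was 10 or more, so fold changes of low genes are understated. P-values were adjusted by Benjamini-Hochberg over all genes tested, and genes at an adjusted p under 0.05 are called. The 6 pairs used their own 6 mice, and genotype, memantine and interaction used all 12. The code was tested on simulated data with known changes. Nothing states separate litters, so p-values measure the spread between these mice. Replicate numbers did not pair the mice (r of same-numbered deviations −0.175 to 0.0802 over 18 pairs).

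The 10 genes and the 17 context lists were chosen with earlier results of these data known. Named beside the 10 are list genes called in any of the 9 comparisons, the 2 genes with the smallest unadjusted p per list and pair, the 3 genes with the highest correlation to each member, the 3 neighbours on each side of *C4b*, and *Shank2*; a selection of these is given. Listed genes not in the table (9) were not analysed here. Correlations used exact permutation within groups in scipy 1.17.1. Alternatives were a pseudocount of 5, no filter, a mean of at least 50, the replicate block, quantile normalization, all 12 mice in one fit, and leaving out each mouse.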

Additional observations from a re-analysis of the deposited data

How the results depend on the processing

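Of 1220 values of the 10 genes recomputed under the alternatives, 1183 kept their direction and side of the threshold, 9 lost and 12 gained a call, and 16 that were not called changed sign, the largest of them 0.21 in size. No called value changed sign. The genotype values of *C4b*, which were not tested, were counted as kept if they held their direction and moved by less than the SD within groups. The calls of the 10 genes rest on few mice. The number called over both treatments ranged from 0 to 2 when 1 mouse was left out, against 1; in Mem-K/W from 0 to 3 and in KO-M/V from 0 to 1, against 0, the higher values both without KO-Mem replicate 3; in KO-M/WT-V from 0 to 3, against 0, and 2 (*P2ry12* and *Csf1r*) with all 12 mice in one fit. Without KO-Mem replicate 3 the share of all genes called was 10.8% in Mem-K/W and 0.547% in KO-M/V. It was 14.1% in KO-M/WT-V and 15.2% over both treatments. The fit of all 12 mice called 2065 of 17662 genes in KO-M/WT-V. The cause of these changes in calls was not tested. Under the other 5 alternatives *P2ry12* stayed called over both treatments (adjusted p 0.0426 to 0.0498).

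With the replicate number as a block, 1 gene was called in KO-M/WT-V (*Tmem119*, −0.57, adjusted p = 0.0376), against 0. That fit called 999 of all 17662 genes tested. The block changed no other call of the 10 genes, and same-numbered mice share only a number.

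Over all genes, the number called when 1 mouse was left out ranged from 2 to 53 in Veh-K/W (5 with all mice), from 2 to 1911 in Mem-K/W (12), from 0 to 97 in KO-M/V (0), from 1 to 3 in WT-M/V (2), from 1 to 2490 in KO-M/WT-V (595), from 1 to 5 in WT-M/KO-V (4), from 694 to 2683 over both treatments (1907) and from 0 to 4 in the interaction (0). Other settings gave 2 to 4 in Veh-K/W, 4 (block) to 634 (12 mice in one fit) in Mem-K/W, 0 to 2 in WT-M/V, 365 (no filter) to 2065 (12 mice in one fit) in KO-M/WT-V, 2 (block) to 5 in WT-M/KO-V and 1825 to 1975 over both treatments. The same alternatives for the called genes of the other lists, and leaving out KO-Mem replicate 3 for other named genes, were chosen after seeing the data; of 24 called in KO-M/WT-V, 0 stayed called in every fit that left out 1 mouse. Depth was known only as an estimate of relative depth (0.89 to 1.15 of the mean), and 3 mice a group limit what could be detected.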
